A study of Solanum dulcamara with 18 samples.

Results

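Leaves of flooded plants were compared directly with leaves of drought-stressed plants, in both cases after caterpillars had fed on them. The plant was Solanum dulcamara (bittersweet nightshade), a wild perennial relative of tomato and potato, and the caterpillar was Spodoptera exigua (beet armyworm, BAW), a generalist leaf feeder. The comparison took the 3 libraries titled flooding_baw and the 3 titled drought_baw, 6 of the 18 libraries in the series, by their titles alone. Infested flooding plants stood under flooding for 5 days and then for 2 more days with caterpillars, which fed for 48 h while the flooding went on. Infested drought plants followed the same schedule under drought. Uninfested flooding and uninfested drought plants (3 libraries each) had the same water treatments and no caterpillars. Control-watered plants, infested and uninfested (3 libraries each), did not enter the main comparison. They are used to define herbivory-responsive contigs, to place levels and in an alternative model of all 18 libraries. All 6 groups were greenhouse plants and the tissue was leaf. The sources used here do not give the plants' genotype or age, how many plants and larvae stood behind a library, or how deep the flooding and how dry the soil were.

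Drought and flooding reach a leaf by different routes. Drying soil raises abscisic acid, the hormone that closes stomata and turns on genes for dehydration tolerance. Flooding cuts off oxygen at the roots, traps the gas ethylene and acts on the shoot through altered root signals. Chewing caterpillars raise jasmonate, which turns on defences such as proteinase inhibitors in nightshades, and both abscisic acid and ethylene are known to alter jasmonate responses. The features counted here were assembled contigs with no gene names, so no contig could be tied to one of these pathways, and the leaf label could not be checked against photosynthesis genes.

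The infested flooding libraries held 6717218, 8963650 and 14063255 reads in contigs, against 10614466, 8861062 and 10270396 in the infested drought libraries. On the first principal component of the 6 libraries, which held 39.3% of the variance, the flooding libraries lay at 24.4, 59.5 and -1.31 and the drought libraries at -24.7, -31.3 and -26.5. On that axis the groups did not overlap, but the flooding libraries were spread far more widely, and flooding replicate 3 lay nearest to the drought group. On the second component (23.4%) flooding was at -26.2, 26.7 and -38.5 and drought at 6.34, 1.69 and 30, which overlapped. Over contigs the median SD of log2 CPM was 0.222 in infested flooding and 0.183 in infested drought, a smaller contrast. Replicates of a group are described as biological in the series design.

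Few single contigs passed the test between infested flooding and infested drought leaves, and those that did were divided evenly by direction. The model was fitted to the 12 flooding and drought libraries, infested and uninfested, which share an estimate of spread. Of 19945 contigs tested, 39 were called (0.196%) at a Benjamini-Hochberg adjusted p under 0.05 in edgeR's quasi-likelihood test. Of these, 20 were higher in flooding (0.1%) and 19 were lower (0.0953%), and 16 of each were at least 2-fold apart (0.0802% in each direction). An 8-fold difference was reached by 1 contig that was higher and 3 that were lower. An unadjusted p under 0.05 was found for 2670 contigs (13.4%). All 39 called contigs had every flooding library on the same side of every drought library, as did 4009 of all contigs tested (20.1%). Because these were whole leaves, fewer cells of a type and less RNA per cell cannot be told apart.

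The number of calls was sensitive to the tool and to single libraries. DESeq2 on the same 12 libraries called 517 contigs (2.59%), 204 higher (1.02%) and 313 lower (1.57%) in flooding, and these included 20 of the 20 higher and 18 of the 19 lower edgeR calls. The remaining contig, comp29642_c0_seq1 (592 bases, named after its values were seen), had no adjusted p in DESeq2. The edgeR model of all 18 libraries called 162 (0.803%), 65 higher (0.322%) and 97 lower (0.481%), and that of the 6 infested libraries alone called 6 (3 in each direction), of which 5 were among the 39. Leaving out infested flooding replicate 1, 2 or 3 gave 1, 10 or 59 calls, and leaving out infested drought replicate 2 or 3 gave 1 call each. Without uninfested flooding replicate 1, 2 or 3 there were 5, 88 or 62 calls, and without uninfested drought replicate 2 there were 12. All 39 contigs kept their direction in all 12 of these fits with a library left out. Because their groups did not overlap, leaving out a library left little room for another outcome. Of the 39, 14 were called in at least 6 of these fits, and comp14844_c0_seq1 alone was called in every one.

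**Figure D1:**
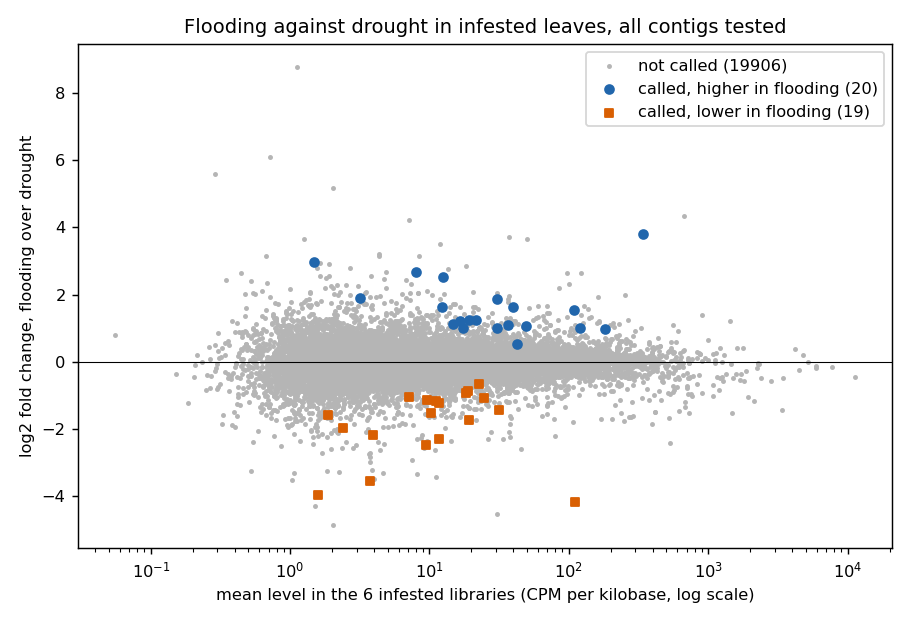
Log2 fold change of flooding over drought in infested leaves (vertical axis) against the mean level of each contig in the 6 infested libraries (CPM per kilobase of contig, log scale) for the 19945 contigs tested. Blue circles are the 20 contigs called higher in flooding, orange squares the 19 called lower and grey points the rest; called contigs occur at low, middle and high levels.

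The called contigs were spread over the range of abundance and length. In 4 equal bins of mean level per kilobase, lowest to highest, 5, 9, 13 and 12 contigs were called, and in 4 equal bins of contig length, shortest to longest, 7, 9, 14 and 9. The median length of the 39 was 1451 bases, against 1218 bases for all contigs tested, and their median level was 17.2 CPM per kilobase, against 11.5. None of the 39 (0 contigs) came from an assembly component with more than 1 contig, where reads could be divided between near-identical sequences. Only 278 of all 24158 contigs counted came from such components, so the 0 is close to the general share.

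Among contigs higher in flooding, comp21_c0_seq1 (946 bases) had both the largest difference and the highest level per kilobase. It stood at 739, 439 and 637 CPM (counts scaled to library size by TMM) in infested flooding libraries, against 76.9, 29.5 and 23.5 CPM in infested drought libraries. Every flooding library was several times above every drought library. The log2 fold change was 3.80 ± 0.57 (SE; 14-fold; adjusted p = 0.0379). Infested control-watered plants were at 3.29, 337 and 7.67 CPM, so replicate 2 of that group was above every infested drought library and replicates 1 and 3 were below every one. With all 18 libraries in the model, which takes in that spread, the adjusted p was 0.169.

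The contig with the smallest p of all, comp14844_c0_seq1 (2557 bases), was at 61.4, 54.9 and 46.7 CPM in infested flooding libraries and at 10.1, 10.7 and 7.72 CPM in infested drought libraries. The 3 values of each group lay close together, with a wide gap between the groups. Its log2 fold change was 2.51 ± 0.17 (SE; 5.71-fold; adjusted p = 0.000133). Infested control-watered leaves held 12.4, 6.56 and 14.9 CPM, around the drought values and below every flooding library. This contig was among those lowered by herbivory in control-watered plants (log2 fold change -2.82 ± 0.30). Uninfested leaves showed the same order at higher levels, with 163 ± 21.6 CPM in flooding and 45.7 ± 7.17 CPM in drought (SD, n = 3 each).

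The other 6 of the 8 largest differences toward flooding among contigs averaging at least 8 CPM were between 1.23 and 1.86 on the log2 scale. comp16787_c0_seq1 (761 bases) was at 38.5, 40.9 and 29.7 CPM in infested flooding and at 14.2, 9.2 and 6.45 CPM in infested drought libraries, a log2 fold change of 1.86 ± 0.24 (adjusted p = 0.0298). comp10863_c0_seq1 (1896 bases) was at 153, 80 and 108 CPM in flooding and at 37.9, 36.7 and 34.4 CPM in drought (log2 fold change 1.64 ± 0.22, adjusted p = 0.0298). In both contigs the lowest flooding library was over 2 times the highest drought library. comp3512_c0_seq1 (1296 bases), second only to comp21_c0_seq1 in level per kilobase among contigs called higher at 2-fold or more, was at 200, 227 and 205 CPM in flooding, against 70, 68.6 and 78.8 CPM in drought (log2 fold change 1.54 ± 0.25, adjusted p = 0.038). Its replicates were tight in both groups. The log2 fold change was 1.64 ± 0.28 for comp18486_c0_seq1 (19.5 ± 3.53 CPM in flooding and 6.25 ± 1.69 CPM in drought; SD, n = 3 each), 1.24 ± 0.20 for comp7417_c0_seq1 and 1.23 ± 0.21 for comp7692_c0_seq1, with every flooding library again above every drought library.

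Contigs with smaller differences were also called. comp2254_c0_seq1 (1948 bases) was at 335, 308 and 292 CPM in infested flooding libraries and at 160, 154 and 156 CPM in infested drought libraries. No library of either group strayed toward the other, and the difference was close to 2-fold (log2 fold change 0.99 ± 0.12, adjusted p = 0.0209). comp15558_c0_seq1 (596 bases), the next in level per kilobase after comp3512_c0_seq1 among those higher by 2-fold or more, was at 44.9, 30.8 and 43.6 CPM in flooding, against 19.1, 21.8 and 16.3 CPM in drought (log2 fold change 1.06 ± 0.17, adjusted p = 0.0379). Infested control-watered leaves lay below both at 6.22, 7.87 and 8.67 CPM.

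Among contigs lower in flooding, comp654_c0_seq1 (777 bases) had both the largest difference and the highest level per kilobase. It was at 11.2, 5.04 and 10.9 CPM in infested flooding libraries, against 191, 68 and 234 CPM in infested drought libraries. The drought libraries were all far above, but their own values spanned more than 3-fold. The log2 fold change was -4.18 ± 0.61 (SE; 18.2-fold lower; adjusted p = 0.0379). Infested control-watered leaves, at 3.54, 11.8 and 2.56 CPM, lay around the flooding values and below every drought library. The contrast was of like size in uninfested leaves, with 4.19 ± 0.6 CPM in flooding and 125 ± 72.4 CPM in drought (SD, n = 3 each; log2 fold change -4.90 ± 0.64).

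**Figure D2:**
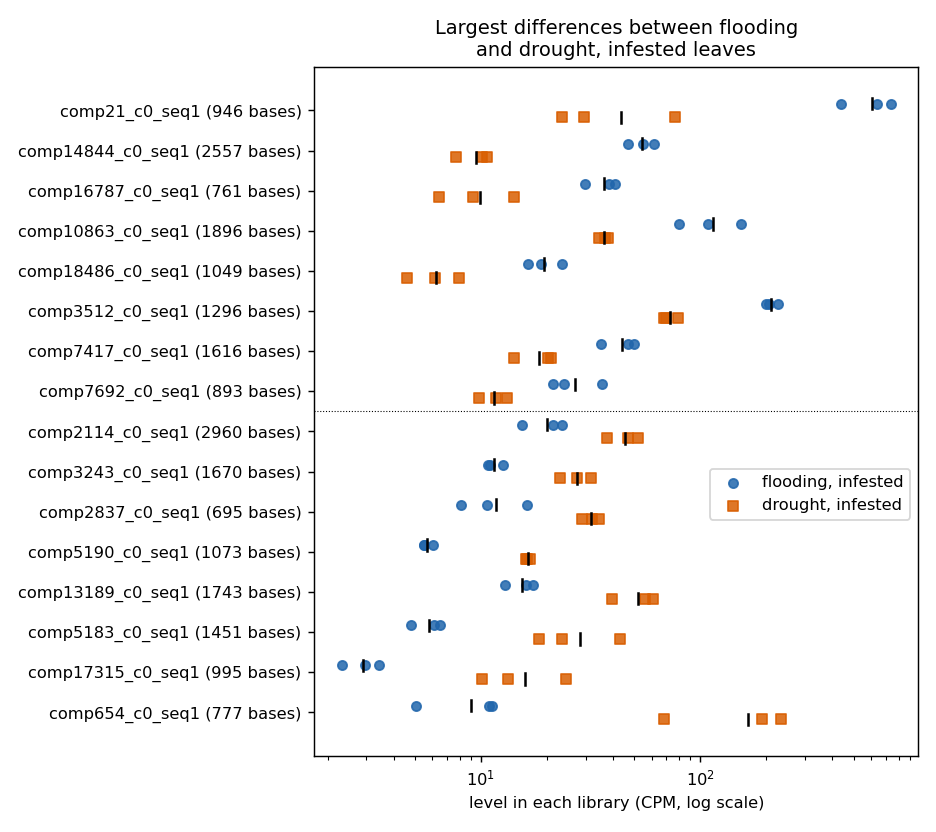
Level of the 8 contigs with the largest positive and the 8 with the largest negative log2 fold change among called contigs averaging at least 8 CPM, in each infested library (CPM, log scale; blue circles flooding, orange squares drought, black bars group means). Flooding and drought points of a contig do not overlap in any row, and comp21_c0_seq1 and comp654_c0_seq1 have the widest gaps.

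A pair of contigs lower in flooding were also raised at least 2-fold by herbivory in control-watered plants. comp5183_c0_seq1 (1451 bases) was at 6.54, 6.13 and 4.79 CPM in infested flooding and at 23.4, 18.4 and 42.9 CPM in infested drought libraries, a log2 fold change of -2.29 ± 0.33 (adjusted p = 0.0379). comp17315_c0_seq1 (995 bases) was at 3.42, 2.96 and 2.32 CPM in flooding and at 13.3, 10.1 and 24.4 CPM in drought (log2 fold change -2.49 ± 0.37, adjusted p = 0.0379). For both contigs drought replicate 3 was the highest library and the groups were well apart. In uninfested leaves comp17315_c0_seq1 was close to 0 in flooding, at 0.161 ± 0.0734 CPM, against 9.99 ± 3.82 CPM in drought (SD, n = 3 each). Feeding in control-watered plants raised comp5183_c0_seq1 by 1.75 ± 0.21 and comp17315_c0_seq1 by 2.15 ± 0.46 on the log2 scale (adjusted p = 0.000904 and 0.015).

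The remaining contigs lower in flooding differed in how closely their replicates lay. comp5190_c0_seq1 (1073 bases) was at 5.5, 6.03 and 5.52 CPM in infested flooding libraries and at 16.1, 16.7 and 16.3 CPM in infested drought libraries (log2 fold change -1.53 ± 0.18, adjusted p = 0.0209). Within each group its values were nearly identical. comp13189_c0_seq1 (1743 bases) was at 12.9, 16.1 and 17.3 CPM in flooding, against 61, 55.8 and 39.5 CPM in drought (log2 fold change -1.74 ± 0.26, adjusted p = 0.0379). comp2837_c0_seq1 (695 bases), high per kilobase, was at 10.7, 8.11 and 16.2 CPM in flooding and at 34.5, 28.8 and 32 CPM in drought (log2 fold change -1.43 ± 0.22, adjusted p = 0.0379). In these 3 contigs no flooding library came near the drought range. The flooding libraries were also below for comp3243_c0_seq1 (log2 fold change -1.24 ± 0.20), comp2114_c0_seq1 (-1.17 ± 0.18) and comp6498_c0_seq1 (-1.07 ± 0.18).

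Called contigs differed in which water treatment stood apart from infested control-watered plants. comp3243_c0_seq1 was lowest in flooding (11.5 ± 0.988 CPM), intermediate in drought (27.3 ± 4.48 CPM) and highest with control watering (54.5 ± 2.6 CPM; SD, n = 3 each), and comp2114_c0_seq1 had the same order. comp6498_c0_seq1, in contrast, was at 29.6 ± 3.89 CPM in flooding and 61.9 ± 11.9 CPM in drought, with control watering at 32.7 ± 5.29 CPM, close to flooding. The control mean was nearer to drought than to flooding on a log2 scale for 17 of the 20 contigs higher in flooding (85%) and for 15 of the 19 lower (78.9%), against 60.4% of all contigs tested. In DESeq2's longer lists the share was 70.6% of the 204 higher and 81.8% of the 313 lower. The control mean lay between both water treatments for 14 of the 20 and for 11 of the 19, against 4979 of the 19945 contigs tested. Called contigs were chosen for a wide gap, which leaves more room between, so these shares are not like for like. Among DESeq2's calls the control mean lay between for 123 of 204 higher and 148 of 313 lower. It was above both treatments for 149 of those 313, against 7264 of the 19945 contigs tested. For the 204 higher calls it was below both for 68, against 7702 of the 19945.

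The other 20 called contigs had log2 fold changes of 0.52 to 2.96 where higher in flooding (10 contigs) and of -3.97 to -0.66 where lower (10 contigs). Their mean levels over the 6 infested libraries ran from 0.934 to 565 CPM, and 8 of them averaged under 8 CPM. The lowest of all was comp29642_c0_seq1, at 0.149, 0 and 0.145 CPM in infested flooding libraries and at 1.28, 3.07 and 0.977 CPM in infested drought libraries.

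Most of the contigs that edgeR called in infested leaves were called without caterpillars as well, and a smaller share of the longer DESeq2 list was. The like contrast in uninfested leaves, which uses other libraries but shares an estimate of spread with the infested one, called 1119 contigs (5.61%), 401 higher (2.01%) and 718 lower (3.6%) in flooding. Of the infested calls, 19 of 20 higher and 16 of 19 lower were also called in uninfested leaves in the same direction, so that 89.7% of the infested calls but only 3.13% of the uninfested calls were shared. None (0 contigs) was called in opposite directions. All 39 had the same sign in uninfested leaves, as did 60.7% of all contigs tested. Of DESeq2's infested calls, 94 of 204 higher (46.1%) and 152 of 313 lower (48.6%) were among edgeR's uninfested calls in the same direction. With DESeq2 in both contrasts 291 of 517 infested calls were shared, and with all 18 libraries in edgeR 107 of 162 were. DESeq2's infested calls had the same sign in edgeR's uninfested contrast for 188 of 204 contigs higher in flooding (92.2%) and 296 of 313 lower (94.6%). Leaving out uninfested drought replicate 1, 2 or 3 lowered the uninfested count to 607, 661 or 656, and leaving out uninfested flooding replicate 1 or 2 lowered it to 523 or 481.

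Only 4 of the 39 were not called in uninfested leaves, and all 4 are named after their values were seen. comp6723_c0_seq1 (1380 bases) was at 4.31, 3.94 and 2.69 CPM in infested flooding libraries and at 0.69, 0.59 and 0.0977 CPM in infested drought libraries (log2 fold change 2.96 ± 0.48, adjusted p = 0.038). In uninfested leaves it was at 3.25 ± 0.201 CPM in flooding and 1.9 ± 0.726 CPM in drought (SD, n = 3 each), and the log2 fold change of 0.77 ± 0.39 was not called (adjusted p = 0.29). Its flooding level was close with and without caterpillars, and its drought level was further apart. comp14376_c0_seq1 (log2 fold change -2.18 ± 0.36 infested and -0.67 ± 0.31 uninfested), comp6867_c0_seq1 (-1.13 ± 0.20 and -0.11 ± 0.19) and comp9362_c0_seq1 (-0.88 ± 0.15 and -0.38 ± 0.15) were the others. For none of the 4 did the difference between infested and uninfested leaves pass the test, with adjusted p from 0.357 for comp6867_c0_seq1 to 0.59 for comp9362_c0_seq1.

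The much longer lists of contigs called in uninfested leaves moved the same way in infested leaves, by smaller amounts. The 401 contigs higher in uninfested flooding had a median of 0.38 in infested leaves on the log2 fold change scale, where 95.8% were higher in flooding, against a median of 0.00 and 50.2% over all contigs tested. The 718 lower in uninfested flooding had a median of -0.48 in infested leaves, where 91.5% were lower, against 49.8% of all contigs tested. Their uninfested medians were 0.79 and -1.40, but those values chose the contigs, which inflates them. With each of the 12 libraries left out in turn, the infested medians stayed between 0.34 and 0.42 and between -0.54 and -0.42.

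**Figure D3:**
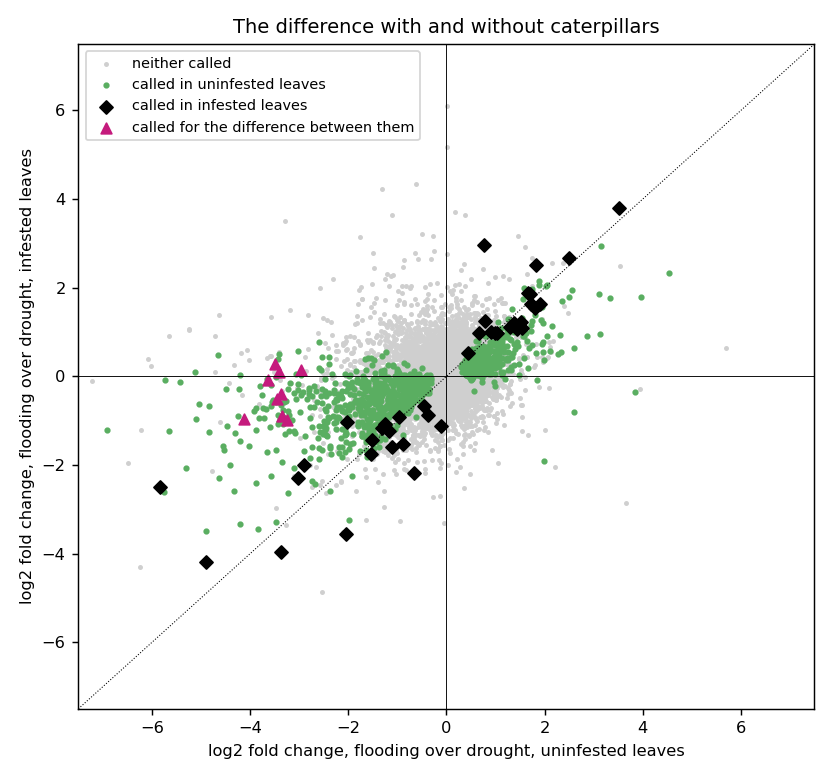
Log2 fold change of flooding over drought in infested leaves (vertical axis) against the same in uninfested leaves (horizontal axis) for each contig tested, with the line of equality dotted. Black diamonds are the 39 contigs called in infested leaves, green points those called in uninfested leaves and magenta triangles the 9 called for the difference; the diamonds lie in the lower left and upper right, the triangles between -4.13 and -2.97 on the horizontal and -0.98 and 0.29 on the vertical axis, and 3 contigs fall outside the axes.

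Herbivory-responsive contigs were then taken from libraries outside the comparison. In control-watered plants, 2393 of 18873 contigs were called between infested and uninfested leaves (12.7%), of which 667 were raised at least 2-fold (3.53%) and 177 were lowered at least 2-fold (0.938%). The number called was 1268 without uninfested control replicate 1 and 1019 without uninfested control replicate 2. Of the raised and lowered contigs, 662 and 175 were tested between flooding and drought.

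Contigs raised by herbivory differed little between flooding and drought in infested leaves, whereas in uninfested leaves they were lower in flooding. Their mean log2(CPM + 1) was 4.64, 4.76 and 4.75 in infested flooding libraries, against 5.04, 4.71 and 4.79 in infested drought libraries. These groups overlapped, and drought replicate 1 was the highest library. In uninfested leaves the means were 2.99, 2.78 and 3.15 in flooding and 4.0, 3.81 and 3.78 in drought, with no overlap. The median log2 fold change over the 662 contigs was -0.10 in infested leaves (59.2% lower) and -0.89 in uninfested leaves (93.7% lower), and the median of each contig's difference between them was 0.83. Over all contigs tested the corresponding medians were 0.00, 0.01 and 0.00. In infested leaves 2 of the 662 were called (0.302%, against 0.196% of all contigs tested), comp5183_c0_seq1 and comp17315_c0_seq1. In uninfested leaves 222 were called (33.5%, against 5.61% of all contigs tested). Without infested drought replicate 1 the infested median was 0.02, so its sign rested on that library.

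The raised contigs averaged 4.72 ± 0.07 in infested flooding and 4.85 ± 0.17 in infested drought leaves, close to the 4.92 ± 0.13 of infested control-watered leaves (SD, n = 3 each). Without caterpillars they averaged 2.97 ± 0.19 in flooding, 3.86 ± 0.12 in drought and 3.34 ± 0.15 with control watering, so that control-watered leaves lay between the water stresses. The control-watered values chose the list and are given as a description.

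Contigs lowered by herbivory showed the opposite picture at smaller size. Their mean log2(CPM + 1) was 3.20, 2.97 and 3.12 in infested flooding libraries and 2.97, 3.18 and 2.87 in infested drought libraries, which overlapped. In uninfested leaves it was 3.99, 4.21 and 3.65 in flooding and 3.50, 3.56 and 3.45 in drought, without overlap. The median log2 fold change over the 175 contigs was 0.05 in infested and 0.47 in uninfested leaves, and the median difference was -0.52. The infested median ran from -0.13 to 0.28 when single libraries were left out of the comparison or of the fit that chose the list. The 0.28 came from a list chosen anew without infested control replicate 1, so its contigs were not the same 175. In uninfested leaves 29 of the 175 were called higher in flooding and 1 lower, against 2.01% and 3.6% of all contigs tested. In infested leaves 4 were called (2.29%, against 0.196% of all contigs tested), all higher in flooding. They were comp14844_c0_seq1, comp7692_c0_seq1 (27 ± 7.6 CPM in infested flooding and 11.5 ± 1.67 CPM in infested drought; SD, n = 3 each) and a pair named after their values were seen, comp11642_c0_seq1 (10.8 ± 5.42 and 1.7 ± 0.353 CPM) and comp16520_c0_seq1 (5.23 ± 1.36 and 1.4 ± 0.444 CPM).

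**Figure D4:**
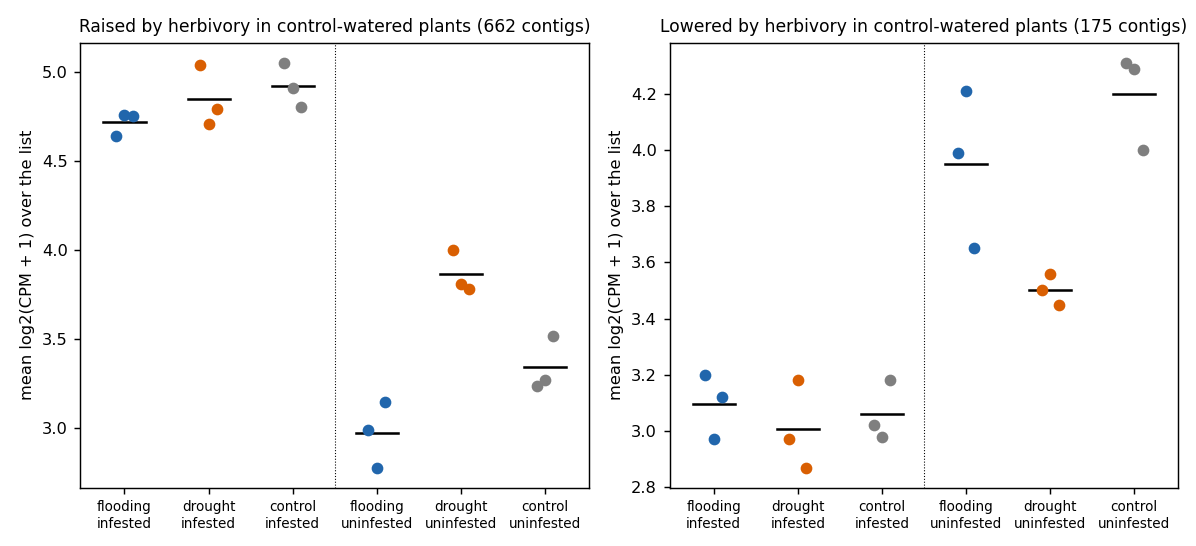
Mean log2(CPM + 1) of the contigs raised (left, 662) and lowered (right, 175) by herbivory in control-watered plants, in each library of the 6 groups, with group means as bars; the vertical axes do not start at 0. Blue and orange points (flooding and drought) overlap in infested leaves and are apart in uninfested leaves, where flooding is lower on the left and higher on the right.

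Contigs that differed between flooding and drought in uninfested leaves included herbivory-responsive ones and others. Of the 718 lower in flooding, 222 were in the raised list, and their median log2 fold change was -0.39 in infested leaves, where 80.2% were lower, and -1.96 in uninfested leaves. A further 356 were tested and not called for herbivory. These had medians of -0.58 in infested leaves, where 96.9% were lower, and -1.26 in uninfested leaves. Infested leaves had 2 calls among the 222 (0.901%) and 13 among the 356 (3.65%), against 0.196% of all contigs tested. Of the 401 contigs higher in uninfested flooding, 29 were in the lowered list, with medians of 0.89 infested and 1.18 uninfested and 4 infested calls (13.8%). The 300 not called for herbivory had medians of 0.36 infested and 0.72 uninfested and 14 infested calls (4.67%). Uninfested values chose all of these subsets, which inflates their uninfested medians. The difference between these subsets was not tested.

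The difference itself, the infested contrast minus the uninfested one, was tested for every contig and called for 9 (0.0451%), all with a more positive value in infested leaves. No contig (0) was called with a more negative value. At an unadjusted p under 0.05 there were 1658 contigs in both directions together, and DESeq2 called 138 (0.692%), of which 129 were more positive (0.647%) and 9 more negative (0.0451%). The edgeR count was 3, 2 or 1 without infested drought replicate 1, 2 or 3, 1 or 2 without infested flooding replicate 1 or 3, 5 without uninfested drought replicate 2, and 5 or 34 without uninfested flooding replicate 2 or 3. With all 18 libraries it was 4 (0.0198%). All 9 contigs were called in uninfested leaves, with log2 fold changes from -4.13 to -2.97, and none (0) in infested leaves, where they ran from -0.98 to 0.29. The test of the difference used these same values, so this pattern follows in part from how the contigs were chosen. Each of the 9 was also raised at least 2-fold by herbivory in control-watered plants, against 3.53% of all contigs tested there.

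The contig of smallest p among them, comp5067_c0_seq1 (1787 bases), was at 15.8, 16.4 and 13.7 CPM in infested flooding libraries and at 29.2, 26.1 and 33.6 CPM in infested drought libraries. In uninfested leaves it was at 1.21, 1.06 and 0.467 CPM in flooding and at 15, 15.8 and 17.3 CPM in drought. Drought was above flooding in both settings, by a far wider margin without caterpillars. The log2 fold changes were -0.96 ± 0.18 infested and -4.13 ± 0.24 uninfested, a difference of 3.17 ± 0.30 (adjusted p = 0.00493), and the contig was called for the difference with any of the 12 libraries left out.

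For comp803_c0_seq1 (1358 bases) the infested groups overlapped, with 19.5, 19.2 and 16.5 CPM in flooding and 18.6, 31.5 and 22.8 CPM in drought. Its uninfested libraries were at 0.781, 0.737 and 1.32 CPM in flooding, against 9.68, 9.62 and 10.6 CPM in drought, and the difference was 2.97 ± 0.33 on the log2 scale (adjusted p = 0.0105). comp9608_c0_seq1 (884 bases) had 15.9, 18.3 and 19.3 CPM in infested flooding and 19.8, 11.9 and 12.2 CPM in infested drought libraries. These overlapped as well, while the uninfested means were 0.521 ± 0.101 CPM in flooding and 5.92 ± 2.24 CPM in drought (SD, n = 3 each; difference 3.77 ± 0.45, adjusted p = 0.0179). comp21469_c0_seq1 (1064 bases) was at 45.4, 46.6 and 46.2 CPM in infested flooding and at 48.5, 38.3 and 37.8 CPM in infested drought libraries. Uninfested leaves held 1.13 ± 0.667 CPM in flooding and 8.93 ± 2.45 CPM in drought (SD, n = 3 each), and the difference was 3.12 ± 0.39 (adjusted p = 0.0238). With all 18 libraries the adjusted p for the difference was 0.0606 for comp803_c0_seq1, 0.0606 for comp9608_c0_seq1 and 0.0135 for comp21469_c0_seq1. The call for comp803_c0_seq1 was lost without infested drought replicate 3 or infested flooding replicate 1. That for comp9608_c0_seq1 was lost without infested flooding replicate 1 or 3, infested drought replicate 2 or 3, or uninfested flooding replicate 2, and that for comp21469_c0_seq1 without infested flooding replicate 1 or 3 or any infested drought library. The other 5 had differences of 2.26 to 3.55 with adjusted p from 0.0285 to 0.0464. Each was called for the difference in only 1 to 4 of the 12 fits with a library left out.

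**Figure D5:**
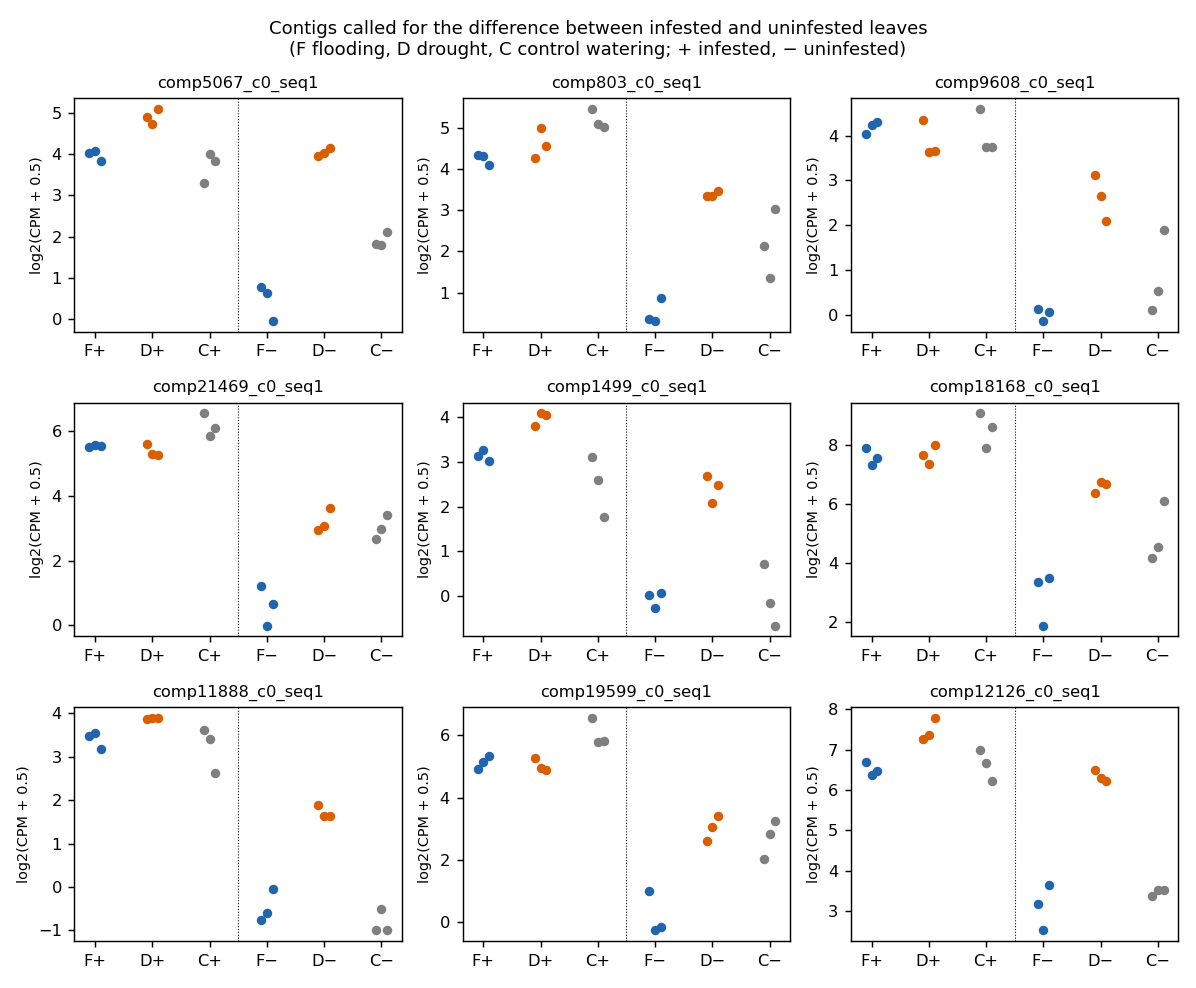
Level of the 9 contigs called for the difference, log2(CPM + 0.5), in each library of the 6 groups (F flooding, D drought, C control watering; plus infested, minus uninfested). In every panel all uninfested flooding libraries lie below all uninfested drought libraries, and the gap between infested flooding and infested drought is smaller; vertical scales differ between panels.

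Toward a more negative value in infested leaves, the contigs of smallest p were not called. comp7050_c0_seq1 (2453 bases) was at 9.26 ± 1.35 CPM in infested flooding and 11.8 ± 1.44 CPM in infested drought leaves, against 17.1 ± 1.13 and 11.5 ± 0.779 CPM in uninfested flooding and uninfested drought leaves (SD, n = 3 each). Its difference was -0.91 ± 0.20 on the log2 scale (adjusted p = 0.222). comp16081_c0_seq1 (2629 bases) had a difference of -1.30 ± 0.29 (adjusted p = 0.224). DESeq2 gave adjusted p of 0.0325 and 0.0359 for this pair.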

How the data were processed

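Leaf RNA was sequenced from 18 libraries, 3 in each of 6 groups. The main deposited file gave raw read counts of 24158 assembled contigs, 501 to 15047 bases long. The submitters' processing notes name Bowtie 0.12.7 and DESeq. The assembler, the counter and whether strand was used are not given in the sources used here. Columns were tied to samples by the column numbers in the labels. The authors' second table held a normalized signal, equal to count times 1 factor per library and kilobase. It served only in an alternative that leaves out the 1748 contigs it lacks. No contig ID (0) matched the reference gene table.

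Contigs kept by filterByExpr (minimum count 10, minimum total 15) were scaled by TMM and fitted with edgeR 4.0.16 (R 4.3.3, robust quasi-likelihood) on the 12 flooding and drought libraries, with 8 residual degrees of freedom and a common biological coefficient of variation of 19.9%. Control-watered libraries were fitted apart, with 4. A contig was called at a Benjamini-Hochberg adjusted p under 0.05. SE is the absolute log2 fold change over the square root of F, and CPM is TMM-scaled. Contigs named were the 8 largest changes in each direction among called contigs averaging at least 8 CPM with groups that did not overlap, the 3 most abundant per kilobase at 2-fold or more and the 2 of smallest p in each direction, the 2 largest rises and falls among called members of the herbivory lists, and the 4 of smallest p for the difference. Members and lists were chosen with earlier results of these data known. DESeq2 1.42.0, other filters and scalings and single libraries left out were alternatives. The scripts were tested on simulated data. With 3 against 3, an exact two-sided permutation test of a single value cannot go below 0.1.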

Additional observations from a re-analysis of the deposited data

Results flagged for a closer look

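The difference between flooding and drought itself differed between infested and uninfested leaves for 9 contigs (edgeR quasi-likelihood test of the difference, Benjamini-Hochberg adjusted p under 0.05 over 19945 contigs). The log2 fold change of flooding over drought was higher in infested leaves by 3.17 for comp5067_c0_seq1, 2.97 for comp803_c0_seq1, 3.77 for comp9608_c0_seq1 and 3.12 for comp21469_c0_seq1. For the remaining contigs it was higher by 2.48 for comp1499_c0_seq1, 3.55 for comp18168_c0_seq1, 2.96 for comp11888_c0_seq1, 3.52 for comp19599_c0_seq1 and 2.26 for comp12126_c0_seq1. In that order, these were called for the difference in 4, 3, 1, 2 and 2 of the 12 fits with a library left out. With all 18 libraries their adjusted p in the same test was 0.169, 0.0929, 0.0902, 0.0559 and 0.0261. Uninfested flooding libraries held only 0.0868, 0.164 and 0.467 CPM of comp11888_c0_seq1. They held 0.521, 0.328 and 0.545 CPM of comp1499_c0_seq1 and 1.48, 0.328 and 0.389 CPM of comp19599_c0_seq1. Their means were also low for comp9608_c0_seq1 (0.521 CPM), comp5067_c0_seq1 (0.916 CPM), comp803_c0_seq1 (0.947 CPM) and comp21469_c0_seq1 (1.13 CPM). Only comp12126_c0_seq1 (8.55 CPM) and comp18168_c0_seq1 were well above these. The highest level among the 9 contigs was that of comp18168_c0_seq1, at 197 ± 39.2 CPM in infested flooding and 208 ± 45.8 CPM in infested drought leaves, against 7.94 ± 4.14 CPM in uninfested flooding and 98.2 ± 13.6 CPM in uninfested drought leaves (SD, n = 3 each).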

How the results depend on the processing

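The infested count of 39 was 6 with the 6 infested libraries alone, 162 with all 18, 517 with DESeq2, 25 with the replicate number as a block in 12 libraries and 2 with that block in 6. Over all contigs, deviations of same-numbered flooding and drought libraries correlated at -0.21, -0.17 and -0.21 in infested leaves. In uninfested leaves they correlated at -0.17, 0.15 and -0.19. Whether the numbers pair the samples was not tested further. The uninfested count was 1807 with DESeq2. The count for the difference was 4 with 18 libraries, 4 with the replicate block and 138 with DESeq2. With single libraries left out, these counts ran from 1 to 88, from 481 to 1498 and from 1 to 34, and the herbivory count from 1019 to 2616. With no minimum fold for the raised herbivory list, its uninfested median was -0.46 and its median difference 0.37. Medians of lists under each setting were added after the data were seen. The lowered list's infested median ran from -0.13 to 0.28 as libraries were left out of the comparison or of the fit that chose the list. Over all alternatives, named contigs kept their direction in the infested contrast, which their non-overlapping groups left little room to change. There, 257 values were on the same side of the threshold and 161 were no longer past it. For the difference these numbers were 103 and 15, and 2 were newly past it, comp7050_c0_seq1 and comp16081_c0_seq1 with DESeq2. Where a count or a call moved, the cause was not tested. The shallowest infested flooding library, at 6717218 reads, limits the precision of low contigs.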

Other observations

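A single tested contig had no read in any infested drought library and at least 10 in each infested flooding library. comp8883_c0_seq1 (2185 bases, named after its values were seen) was at 4.46, 3.62 and 6.68 CPM in infested flooding libraries, against 0, 0 and 0 CPM in infested drought libraries, and was not called (adjusted p = 0.359). Its uninfested libraries were at 11.5, 0.0819 and 0 CPM in flooding and at 0, 4.57 and 11.8 CPM in drought, so that libraries of 1 group ran from none to among the highest.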
